A study of Mus musculus with 6 samples.

Results

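miR-150 (probe `mmu-miR-150`) is a single microRNA (miRNA), the only member described here, chosen by its probe name among 566 mouse miRNA probes. It was measured in splenocytes of female NZB/WF1 mice, a hybrid strain that develops a spontaneous disease resembling human lupus. The mice carried an implant with 17alpha-ethinyl estradiol (EE), an implant with 17-beta estradiol (E2) or an empty implant (placebo). The mice were 6 to 7 weeks old at implantation, and the spleens were taken 9 weeks later. Each of the 3 groups held 2 samples, 6 in all. E2 is the main natural estrogen, and EE is a synthetic estrogen with an added ethinyl group. Neither dose was given in the sources used here, and the doses of EE and E2 are not known to match. Whether the 2 samples of a group represent different mice is not stated in the labels. The p-values therefore measure only the spread between these samples, which may be technical. The labels name total RNA of whole splenocytes and no sort of cell types.

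A miRNA is a short RNA that guides a silencing complex to messenger RNAs, mainly through its seed, the bases near its 5′ end. miR-150 is known as a miRNA of mature B and T lymphocytes, and in mouse lymphocytes it represses Myb, a transcription factor of immature cells. The spleen is rich in such lymphocytes, and in NZB/WF1 mice it can also hold myeloid cells and red cell precursors. In the RefSeq gene table of mouse (GRCm38.p6), Mir150 lies on chromosome 7.

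Sequences from RefSeq (GRCm38.p6) are shown for the 4 miRNAs that the values below set against miR-150. miR-181a and miR-342-3p had profiles like that of miR-150, miR-16 was the next highest probe, and miR-223 marks myeloid cells. Capitals mark the seed, bases 2 to 8, and each sequence runs 5′ to 3′.
miR-181a-5p: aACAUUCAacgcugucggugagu
miR-342-3p: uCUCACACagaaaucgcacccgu
miR-16-5p: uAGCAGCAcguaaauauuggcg
miR-223-3p: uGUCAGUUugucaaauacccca
The miR-181a sequence lies at chr1:137966468-137966490 (Mir181a-1) and at chr2:38852741-38852763 (Mir181a-2), both on the plus strand. miR-342-3p lies at chr12:108658680-108658702 and miR-223-3p at chrX:96242884-96242905, both on the plus strand. miR-16-5p lies at chr3:69009918-69009939 on the plus strand (Mir16-2) and at chr14:61631936-61631957 on the minus strand (Mir16-1). The 4 seeds differ from each other. In the RefSeq table the miR-181a seed is shared by the 4 members miR-181a, miR-181b, miR-181c and miR-181d, and the miR-16 seed is shared by 10 mature miRNAs, miR-15b among them.

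Values are normalized counts as deposited, that is, barcode counts per probe after a scaling by a method not given in the sources used here. Depth per sample is unknown, and no counting intervals are given. Summed over all 626 probes, the samples held between 167152 and 205209 normalized counts. The geometric mean of the 100 highest mouse miRNAs differed by at most 3.54% between samples. For the summed positive controls the largest gap was 30.6%. No 2 samples held identical values. The detection floor, the mean plus 2 SD of the negative control probes, was 53.3, and 95 mouse miRNA probes had a mean above it and were tested.

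miR-150 was the highest mouse miRNA probe in every sample, and it was lowest under EE, intermediate under E2 and highest under placebo. It had 15277 and 14140 normalized counts in the EE samples and 24211 and 22678 in the E2 samples, against 44123 and 35124 in the placebo samples. The 3 groups did not overlap. The means were 14708.5 ± 804 under EE, 23444.5 ± 1084 under E2 and 39623.5 ± 6363 under placebo (SD, n = 2 each). The placebo samples were the least alike, 0.33 apart on the log2 scale, against 0.11 between the EE samples and 0.09 between the E2 samples. The lowest value, in EE sample 2, was 265 times the detection floor.

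**Figure D1:**
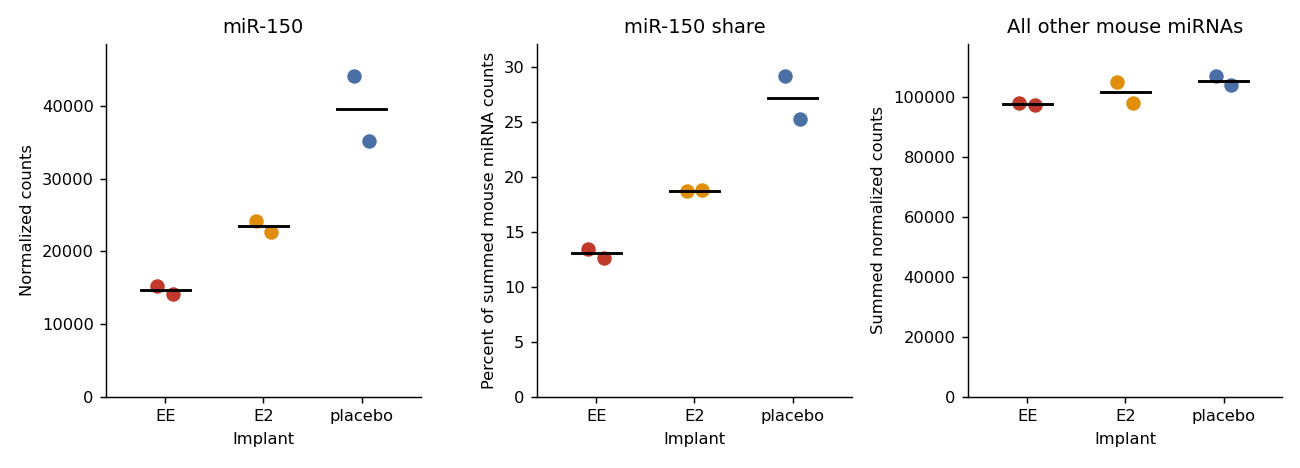
Normalized counts of miR-150 (left), its percent of the summed mouse miRNA counts (middle) and the summed normalized counts of all other mouse miRNA probes (right), by implant. Each point is a sample and each line a group mean of 2 samples. The EE samples (15277 and 14140) lie below the E2 samples (24211 and 22678) and those below the placebo samples (44123 and 35124).

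EE against placebo asked how the synthetic estrogen changed the miRNA. miR-150 was lower in both EE samples than in both placebo samples, with a log2 difference of -1.42 ± 0.11 (SE) and a 95% interval of -1.67 to -1.17. That is a 2.68-fold lower level under EE (interval 2.25 to 3.19), with an adjusted p of 1.18e-05 in limma's moderated test (Benjamini-Hochberg over 95 miRNAs). In this comparison 15.8% of the tested miRNAs were called lower (15) and 10.5% were called higher (10), and 36.8% were lower in every EE sample than in every placebo sample (35). Among the 95, miR-150 had the smallest p and the second largest fall, behind miR-181a. The median log2 difference over all 95 was -0.11. Without EE sample 2, 9 miRNAs were called lower in place of 15, while miR-150 stayed past the threshold without any one sample, at log2 differences between -1.59 and -1.26.

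E2 against placebo asked the same of the natural hormone, with the same placebo samples. miR-150 was lower in both E2 samples than in both placebo samples, with a log2 difference of -0.75 ± 0.11 (SE) and an interval of -1.001 to -0.496. The level under E2 was 1.68-fold lower (interval 1.41 to 2.001), with an adjusted p of 9.53e-04 in limma's test. Here 6.32% of the tested miRNAs were called lower (6) and 4.21% were called higher (4), and 45.3% were lower in every E2 sample than in every placebo sample (43). The median log2 difference over the 95 was -0.20. miR-150 had rank 4 by the size of its fall and rank 5 by its p. The fall missed the threshold after rescaling each sample by its median tested miRNA (-0.64, adjusted p 0.109) or by the ligation controls (-0.43, adjusted p 0.772). It also missed it when all 566 probes were tested (adjusted p 0.105).

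EE against E2 set the compounds, which differ by the ethinyl group, side by side. miR-150 was lower in both EE samples than in both E2 samples, with a log2 difference of -0.67 ± 0.11 (SE) and an interval of -0.93 to -0.42. This was a 1.59-fold lower level under EE (interval 1.34 to 1.90) and the smallest p among the 95, adjusted to 0.0117 in limma's test. In this comparison 4.21% of the tested miRNAs were called lower (4), 3.16% were called higher (3), and 30.5% were lower in every EE sample than in every E2 sample (29). The other 3 called lower were miR-181a, miR-223 and the joint probe of miR-466a-3p with miR-466b-3-3p. The 3 called higher were miR-126-3p, miR-145 and miR-125b-5p. All 7 calls were lost without E2 sample 1, when rescaled by the median tested miRNA and when all probes were tested. For miR-150 the call was lost without E2 sample 1 (log2 difference -0.63, adjusted p 0.107), and under 6 other alternatives given in the closing section. With 2 samples on each side the smallest p of an exact permutation test is 0.333, and single values were not tested that way.

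**Figure D2:**
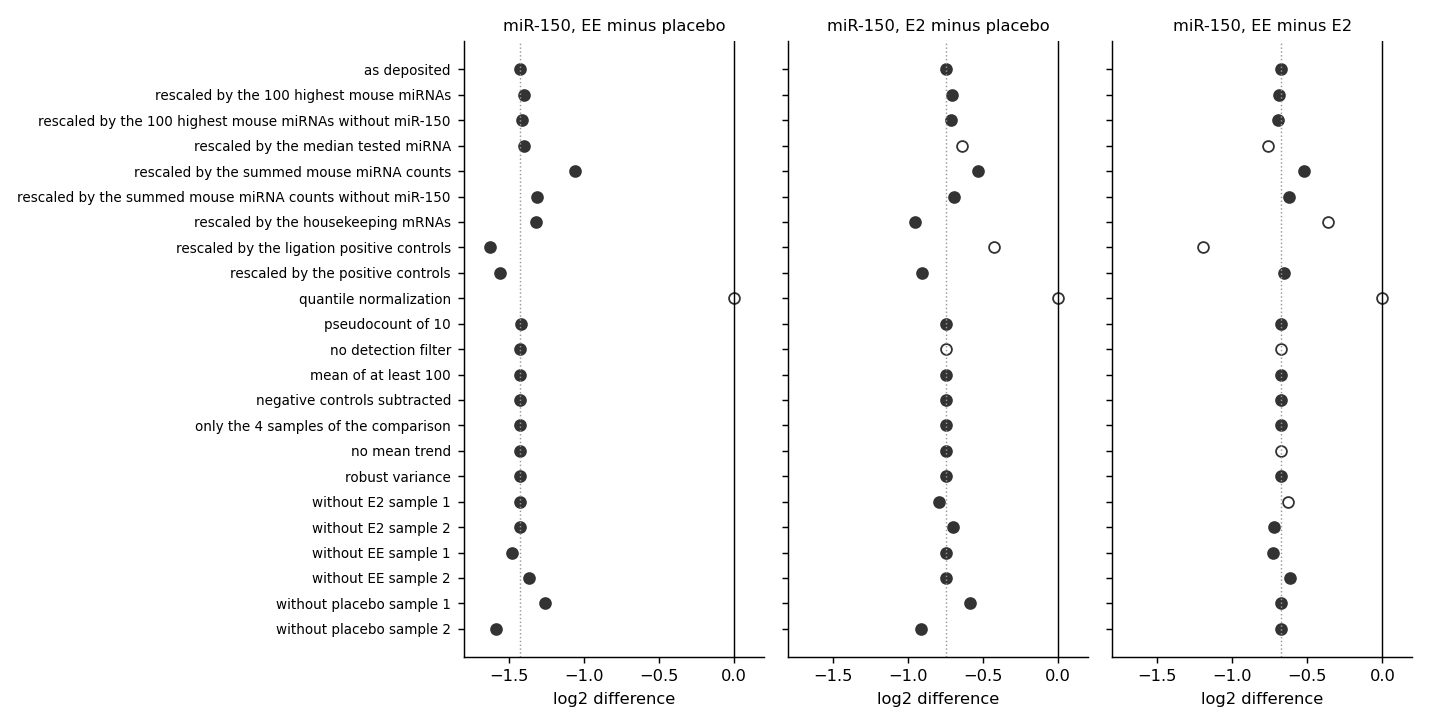
Log2 difference of miR-150 for EE minus placebo, E2 minus placebo and EE minus E2 (horizontal axes) as deposited and under each alternative setting (rows). Filled points passed an adjusted p of 0.05 in limma's test and open points did not, and the dotted line marks the value as deposited. Quantile normalization sets all 3 differences to 0, since miR-150 ranks first in every sample.

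As a share of all summed mouse miRNA counts, miR-150 was lower under both estrogens. Its share was 13.5% and 12.7% in the EE samples and 18.7% and 18.8% in the E2 samples, against 29.2% and 25.2% in the placebo samples. The group means were 13.1% ± 0.558 under EE, 18.7% ± 0.0405 under E2 and 27.2% ± 2.78 under placebo (SD, n = 2 each). No groups overlapped, and the mean share differed by -14.1 percentage points for EE minus placebo, -8.47 for E2 minus placebo and -5.68 for EE minus E2. The share is a part of a whole that contains miR-150 itself, and the other mouse miRNAs also summed lower under both estrogens. The fold of the share was therefore smaller than that of the count. The mean share was 2.08 times as high under placebo as under EE, and the mean count 2.69 times. A share in bulk RNA also cannot tell fewer cells of a type apart from less of the miRNA per cell, and this holds for each level given here.

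The summed mouse miRNA counts were 113515 and 111616 in the EE samples and 129374 and 120812 in the E2 samples, against 151249 and 139137 in the placebo samples. On the values as deposited, most of this gap was miR-150. The part taken by miR-150 depends on the scaling between samples and was not recomputed under other scalings. The mean sum differed by -32627 for EE minus placebo, of which miR-150 made up -24915, or 76.4%. It differed by -20100 for E2 minus placebo, of which miR-150 made up -16179, or 80.5%. Without miR-150 the sums were 98238 and 97476 under EE and 105163 and 98134 under E2, against 107126 and 104013 under placebo. The E2 range then overlapped both the EE and the placebo range, and the mean sum of the other probes differed from placebo by -7.31% under EE and by -3.71% under E2. Relative to the sum of all other mouse miRNAs, miR-150 stood at 0.156 and 0.145 under EE and at 0.230 and 0.231 under E2, against 0.412 and 0.338 under placebo.

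**Figure D3:**
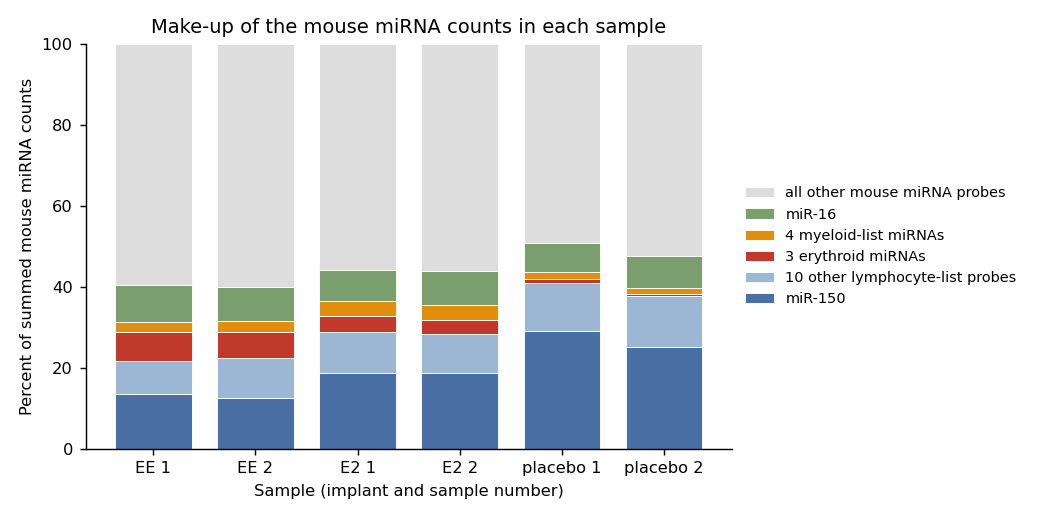
Percent of the summed mouse miRNA counts (vertical axis) taken in each of the 6 samples by miR-150, by the 10 other lymphocyte-list probes, by the 3 erythroid and 4 myeloid-list miRNAs, by miR-16 and by all other probes. The miR-150 segment is 13.5% and 12.7% under EE, 18.7% and 18.8% under E2 and 29.2% and 25.2% under placebo, while the erythroid segment is larger under EE and E2.

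Of the probes next in level, let-7g and miR-142-3p fell under EE, and miR-16 did not pass the test in any comparison. The values of miR-142-3p, which also fell under E2, are given with the lymphocyte list below. miR-16, a widely expressed miRNA, was the second highest probe in every sample, with 10210 and 9416 normalized counts under EE and 9859 and 10194 under E2, against 10893 and 11046 under placebo. Both placebo samples were above the other 4, and the EE and E2 samples overlapped. The log2 difference was -0.16 for EE minus placebo (limma adjusted p 0.278) and -0.13 for E2 minus placebo (adjusted p 0.402). miR-150 was therefore 1.496 and 1.502 times miR-16 in the EE samples and 2.46 and 2.22 times in the E2 samples, against 4.05 and 3.18 times in the placebo samples. Probes can differ in efficiency, so these are ratios of probe counts, of which only the difference between groups is read. let-7g, a member of the let-7 family, had 5958 and 5795 normalized counts under EE and 8987 and 7277 under E2, against 9936 and 8863 under placebo. It fell under EE (-0.68, limma adjusted p 0.00313) but lost that call when rescaled by the median tested miRNA, the summed counts, the housekeeping mRNAs or the ligation controls, under quantile normalization and when all probes were tested. miR-1944 ranged from 5597 to 6485 and miR-15b from 4731 to 5442 over the 6 samples. For both, the E2 samples overlapped the placebo samples, and the EE samples lay below the placebo samples.

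A ratio formed within a sample does not depend on the scaling between samples. The ratio of each of the other 94 tested miRNAs to miR-150 was therefore compared between groups. For EE against placebo, 93.6% of these ratios (88 of 94) were called higher and 0 lower in limma's test, and 93 of 94 had a positive difference. For E2 against placebo 37.2% were called higher (35) and 0 lower, and 91 were positive. For EE against E2 64.9% were called higher (61) and 0 lower, and 91 were positive. At an unadjusted p under 0.05 the numbers past the threshold in either direction were 88, 45 and 66. All 94 ratios share the noise of miR-150, so the count repeats 1 set of miR-150 values and is not 94 separate results. The median log2 difference of the ratios was 1.31 for EE minus placebo, 0.55 for E2 minus placebo and 0.71 for EE minus E2. The E2 count was 16 without E2 sample 1, 19 without E2 sample 2, 23 without placebo sample 1 and 68 without placebo sample 2. For EE against E2 it was 30 without EE sample 1, 10 without EE sample 2 and 0 without either E2 sample, with 34 and 42 ratios at an unadjusted p under 0.05 without E2 sample 1 and E2 sample 2.

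The lymphocyte list named miRNAs of B and T cells, of blood cells more broadly (miR-142 and miR-342) and of immune activation beside miR-150. It was written with earlier results of these data known. It held 12 names, 11 of them on the panel, and 7 tested members other than miR-150. Of the 7, 3 fell under EE and 3 fell under E2 against placebo, 1 fell under EE against E2, and 0 rose in any of these, where 15.8%, 6.32% and 4.21% of all 95 were called lower. Their median log2 difference was -0.90 for EE minus placebo, -0.50 for E2 minus placebo and -0.29 for EE minus E2, beside -0.11, -0.20 and 0.03 over all 95. Summed over the 10 measured members other than miR-150, the list had 9466 and 10785 normalized counts under EE and 13090 and 11465 under E2, against 17777 and 17319 under placebo. The probes for miR-181b with miR-181d, for miR-181c and for miR-342-5p lay below the detection floor and were not tested.

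miR-181a, a miRNA of lymphocyte development whose sequence is shown above, moved with miR-150. It had 699 and 718 normalized counts under EE and 1345 and 1065 under E2, against 2022 and 1897 under placebo. The groups did not overlap, and the order was that of miR-150. Its log2 difference was -1.47 ± 0.17 (SE) for EE minus placebo (limma adjusted p 8.21e-05), -0.71 for E2 minus placebo (adjusted p 0.0230) and -0.76 for EE minus E2 (adjusted p 0.0260). The E2 call was lost without E2 sample 2 (adjusted p 0.222) and without placebo sample 1 (adjusted p 0.0530), and also when rescaled by the median tested miRNA (0.235) or the ligation controls (0.772) and over all probes (0.105). The ratio of miR-150 to miR-181a was 21.9 and 19.7 under EE and 18.001 and 21.3 under E2, against 21.8 and 18.5 under placebo, so the groups overlapped. The log2 ratio of miR-181a to miR-150 differed by -0.04 for EE minus placebo, with a 95% interval of -0.39 to 0.30 and an adjusted p of 0.774 in limma's test. For E2 minus placebo it differed by 0.04, with an interval of -0.30 to 0.38, and the groups overlapped here too.

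miR-342-3p, a miRNA of blood cells, had 2321 and 2258 normalized counts under EE and 3033 and 3013 under E2, against 4616 and 3979 under placebo. It fell under EE (log2 difference -0.90 ± 0.14, limma adjusted p 8.65e-04) and under E2 (-0.50, adjusted p 0.0411). No groups overlapped. The E2 call was lost without any one of E2 sample 1, E2 sample 2, EE sample 1, EE sample 2 or placebo sample 1, at adjusted p values between 0.0522 and 0.222. It was also lost under 7 of 9 scalings (adjusted p 0.0620 to 0.986), over all probes (0.213), without the mean trend (0.0914) and with the 4 samples alone (0.0527). miR-150 fell by more under EE. It was 6.58 and 6.26 times miR-342-3p under EE and 7.98 and 7.53 times under E2, against 9.56 and 8.83 times under placebo. The log2 ratio of miR-342-3p to miR-150 was higher under EE than under placebo by 0.52 ± 0.11 (SE, limma adjusted p 0.00316). For E2 minus placebo the ratio differed by 0.25, with an interval of -0.01 to 0.50 (adjusted p 0.116).

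miR-142-3p, a miRNA of all blood cell lineages, had 3415 and 4366 normalized counts under EE and 5069 and 4409 under E2, against 7049 and 7317 under placebo. Both placebo samples were above the other 4. It fell under EE (log2 difference -0.90, limma adjusted p 0.00124) and under E2 (-0.60, adjusted p 0.0245), the second call being lost without E2 sample 1 (adjusted p 0.0670), E2 sample 2 (0.222) or placebo sample 2 (0.0628). The second call was also lost under 5 alternatives of scaling, filter and variance model. The ratio of miR-142-3p to miR-150 was higher under EE by 0.53 on the log2 scale (adjusted p 0.0352). That call was lost without EE sample 2 (adjusted p 0.224), placebo sample 1 (0.193), E2 sample 1 (0.0720) or E2 sample 2 (0.0733), with the 4 samples of the comparison alone (0.0718) and without the mean trend (0.0652).

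The other 4 tested members of the list did not pass the test against placebo on the values as deposited. miR-146a, which is induced in immune activation, had 2658 and 2990 normalized counts under EE and 3184 and 2605 under E2, against 3604 and 3560 under placebo (log2 difference -0.35 for EE minus placebo, limma adjusted p 0.128). Its ratio to miR-150 was higher under EE than under placebo, by 1.08 on the log2 scale (adjusted p 9.03e-04). miR-155, a miRNA of activated lymphocytes, had 20 and 159 normalized counts under EE and 94 and 57 under E2, against 111 and 204 under placebo, with EE sample 1 the lowest and the groups overlapping. Its log2 difference was -1.39 ± 0.71 (SE) for EE minus placebo (limma adjusted p 0.172) and -1.03 for E2 minus placebo (adjusted p 0.335). The value of 20 in EE sample 1 lay under the detection floor and under the mean of that sample's negative controls (25.25). Rescaled by the housekeeping mRNAs or the positive controls, miR-155 was called lower under EE (adjusted p 0.00227 and 2.71e-05) and under E2 (0.00446 and 0.00253). The SEs were then 0.34 and 0.32 in place of 0.71. Without EE sample 2 the log2 difference of miR-155 for EE minus placebo was -2.85, which rests on the low value of EE sample 1 alone. Under E2 miR-155 was called lower with the 4 samples of the comparison alone (limma adjusted p 0.0175), and also without EE sample 1 or EE sample 2. miR-28, called lower under EE only with a robust variance estimate (adjusted p 0.0431), ranged from 101 to 162 over the 6 samples. miR-142-5p, the other arm of the miR-142 hairpin, went the other way. It had 125 and 108 normalized counts under EE and 114 and 133 under E2, against 93 and 100 under placebo. Its log2 difference was 0.27 for EE minus placebo (limma adjusted p 0.343) and 0.35 for E2 minus placebo (adjusted p 0.227).

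**Figure D4:**
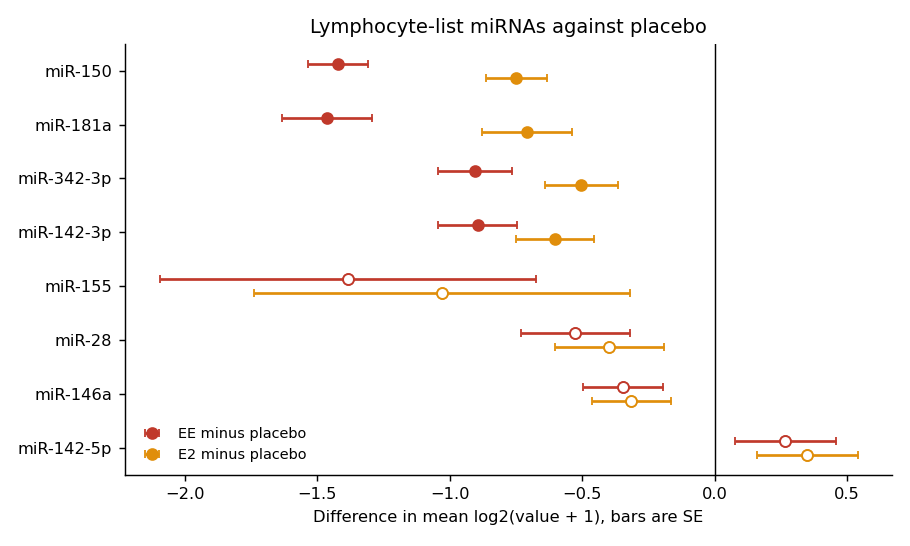
Log2 difference in mean level (horizontal axis, bars are SE) of miR-150 and the 7 other tested lymphocyte-list miRNAs for EE minus placebo and E2 minus placebo. Filled points passed an adjusted p of 0.05 in limma's test and open points did not. miR-181a lies beside miR-150 (-1.47 and -1.42 under EE), and miR-142-5p lies to the right of 0.

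Likeness to the profile of miR-150 was measured over the 6 samples as the root mean square difference of log2 values, each profile centred on its own mean. The miR-150 profile itself had a root mean square of 0.59. The median difference from it over the other 94 tested miRNAs was 0.579. The closest was miR-181a at 0.112, then the probe of miR-466a-3p with miR-466b-3-3p at 0.146, miR-342-3p at 0.216 and miR-2132 at 0.220. miR-669a (0.242), miR-1224 (0.259), miR-151-3p (0.264) and miR-467f (0.268) followed. miR-466a-3p with miR-466b-3-3p had 42 and 40 normalized counts under EE and 80 and 73 under E2, against 118 and 87 under placebo, with the EE samples under the detection floor. miR-2132 had 141 and 176 under EE and 186 and 185 under E2, against 419 and 326 under placebo. miR-669a (35 and 41) and miR-151-3p (45 and 33) were also under the floor in the EE samples, and miR-151-3p in the E2 samples (49 and 53). Both passed the filter on mean level only through their placebo values, so their likeness was partly set by the filter. All of these values are low next to miR-150, and a like profile over 6 samples in 3 groups shares the scaling of the samples.

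The profiles closest to that of miR-150 turned upside down were miR-93 (0.221), miR-126-3p (0.242) and miR-709 (0.296). miR-93, a member of the miR-17 family, had 223 and 191 normalized counts under EE and 148 and 154 under E2, against 100 and 114 under placebo. It rose under EE (log2 difference 0.94, limma adjusted p 0.00305), a call lost when rescaled by the ligation controls (0.104) or the positive controls (0.0657), and for E2 minus placebo its log2 difference was 0.50 (adjusted p 0.109). miR-709 had 98 and 101 under EE and 84 and 97 under E2, against 55 and 63 under placebo.

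Markers of other cell types moved between the same groups, and their part in the level of miR-150 was not tested. The erythroid markers miR-144, miR-451 and miR-486 rose in 3 of 3 under EE and in 3 of 3 under E2 against placebo, where 10.5% and 4.21% of all 95 were called higher. Their summed level was 7933 and 7187 normalized counts under EE and 5230 and 4376 under E2, against 1393 and 596 under placebo. As a share of mouse miRNA counts that was 6.99% and 6.44% under EE and 4.04% and 3.62% under E2, against 0.921% and 0.428% under placebo. miR-451, a miRNA abundant in red cell precursors, rose by 2.93 on the log2 scale under EE (limma adjusted p 6.36e-05) and by 2.24 under E2 (adjusted p 7.38e-04). Under E2 a robust variance estimate gave adjusted p values of 0.116 for miR-451 and 0.0522 for miR-486, and neither was then called. miR-150 was 2.52 and 2.79 times miR-451 under EE and 6.28 and 7.44 times under E2, against 39.1 and 75.1 times under placebo. Leaving these 3 markers and miR-223 out of the sum gave a mean miR-150 share of 14.3% under EE and 20.1% under E2, against 27.6% under placebo.

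Of the 4 myeloid-list miRNAs, miR-223 rose under both estrogens and stood highest under E2, and the other 3 were not called higher against placebo. miR-223 had 1984 and 2042 normalized counts under EE and 3522 and 3244 under E2, against 1308 and 911 under placebo. Its log2 difference was 0.88 for EE minus placebo (limma adjusted p 0.00424) and 1.63 for E2 minus placebo (adjusted p 1.13e-04), and -0.75 for EE minus E2 (adjusted p 0.0320). The call of EE against placebo was lost when rescaled by the median tested miRNA (0.0531) or the ligation controls (0.180) and under quantile normalization (0.0879). miR-150 was 7.70 and 6.92 times miR-223 under EE and 6.87 and 6.99 times under E2, against 33.7 and 38.6 times under placebo. The ratio thus set both estrogens apart from placebo and did not separate EE from E2. The log2 ratio of miR-223 to miR-150 was higher by 2.30 ± 0.12 for EE minus placebo (adjusted p 1.55e-05) and by 2.38 ± 0.12 for E2 minus placebo (adjusted p 2.88e-05). For EE minus E2 it differed by -0.07, with a 95% interval of -0.36 to 0.21 (adjusted p 0.580 in limma's test). The myeloid list of miR-223, miR-23a, miR-24 and miR-27a summed to 2993 and 3017 under EE and 4738 and 4371 under E2, against 2743 and 2205 under placebo. The list did not move as 1 group, and its median log2 difference was -0.09 for EE minus placebo and -0.14 for E2 minus placebo. miR-23a had 508 and 509 normalized counts under EE and 644 and 575 under E2, against 803 and 758 under placebo. It fell under EE (log2 difference -0.62, limma adjusted p 0.0186), a call lost without EE sample 1 (0.103), EE sample 2 (0.0909) or placebo sample 1 (0.0523), under 4 scalings and over all probes. miR-24 and miR-27a passed the test against placebo under neither estrogen. miR-24 had 71 and 71 normalized counts under EE, above both placebo samples (66 and 62), and 46 and 63 under E2.

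**Figure D5:**
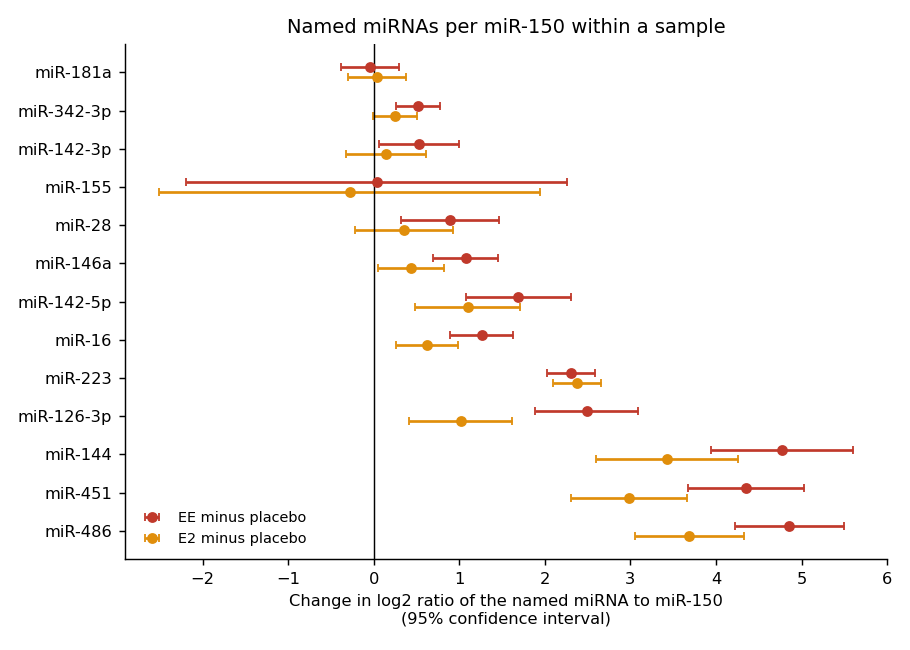
Difference in the log2 ratio of each named miRNA to miR-150 (horizontal axis, with 95% confidence intervals) for EE minus placebo and E2 minus placebo. miR-181a lies at 0 within its interval, miR-223 at 2.30 and 2.38, and the erythroid miR-144, miR-451 and miR-486 farthest to the right.

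Of the 7 endothelial and stromal probes, 4 were not tested because their mean lay below the floor, and the other 3 were low but called in some comparisons. The endothelial probes miR-126-3p and miR-126-5p summed to 166 and 193 normalized counts under EE and 115 and 100 under E2, against 84 and 84 under placebo, with miR-126-5p under the floor in every sample. miR-126-3p had 154 and 180 under EE and 103 and 88 under E2, against 78 and 80 under placebo. It rose under EE against placebo (log2 difference 1.07, limma adjusted p 0.00189, lost when rescaled by the ligation controls at 0.0715) and under EE against E2 (0.80, adjusted p 0.0320). For E2 minus placebo its log2 difference was 0.27 (adjusted p 0.348). The 5 stromal probes (miR-143, miR-145, miR-125b-5p, miR-199a-3p and miR-214) summed to 275 and 289 under EE and 136 and 156 under E2, against 222 and 204 under placebo. miR-145, a miRNA of smooth muscle, had 123 and 123 under EE and 58 and 63 under E2, against 85 and 74 under placebo. It rose under EE against placebo (0.63, limma adjusted p 0.0355) and under EE against E2 (1.01, adjusted p 0.0121). miR-125b-5p had 82 and 96 under EE and 30 and 45 under E2, against 75 and 71 under placebo. It fell under E2 against placebo (-0.97, limma adjusted p 0.0247) and was higher under EE than under E2 (1.25, adjusted p 0.0121). Both E2 values lay under the floor, and the fall under E2 was not called after subtracting the negative controls (limma adjusted p 0.0516). Against placebo the miR-145 call was lost without any one sample but placebo sample 1 (adjusted p 0.0527 to 0.174). The miR-125b-5p call was lost without E2 sample 1 (0.202), placebo sample 1 (0.0649) or placebo sample 2 (0.0628), and both were lost under several scalings. The lowest value in the file was 1, so no probe could stand at 0, and a value above 0 does not mean that a marker was detected.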

How the data were processed

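The authors deposited a single table of whole-number scores per probe and sample, which behave as counts rescaled per sample. Their normalization was not given in the sources used here. Total RNA was run on the nCounter mouse miRNA panel, per the labels' protocols. Values were used as deposited, and no count model was fitted because they are not raw counts.

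The main test was limma 3.58.1 (R 4.3.3), fitted to log2(value + 1) of all 6 samples, with eBayes using a mean trend. It covered the 95 mouse miRNAs whose mean exceeded 53.3, the mean + 2 SD of the negative controls, and was two-sided with a Benjamini-Hochberg threshold of 0.05. Folds come from means of log2 values. Ratios to miR-150 were tested in the same way over 94 miRNAs. The fit was checked on simulated data.

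miRNAs were named by rule: lymphocyte and other cell type lists, the 8 profiles most like miR-150 and 3 most like its sign-turned profile, and the 5 next highest probes. The member and lists were chosen with earlier results of these data known. Alternatives were other scalings, pseudocount, filters, background subtraction, variance models and leaving out each sample. Sequences are from RefSeq tables (GRCm38.p6).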

Additional observations from a re-analysis of the deposited data

How the results depend on the processing

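Of 22 alternatives for each comparison, the fall of miR-150 passed the threshold in 21 for EE against placebo, 18 for E2 against placebo and 15 for EE against E2. The 22 are not separate checks. A pseudocount of 10 or background subtraction can hardly move counts this high, and leaving out a sample of the group not compared leaves the difference as it was. No alternative gave a higher level of miR-150 under an estrogen. Quantile normalization set all 3 log2 differences to 0 by construction, since miR-150 ranks first in each sample. E2 minus placebo otherwise missed the threshold at -0.64 (median tested miRNA), -0.43 (ligation controls) and -0.75 (no filter). EE minus E2 missed it at -0.76 (median), -0.36 (housekeeping mRNAs), -1.20 (ligation controls), -0.67 (no filter, adjusted p 0.253, and no mean trend, adjusted p 0.0633) and without E2 sample 1, with leave-one-out values from -0.73 to -0.62. Without the filter more probes were tested, and the SE of miR-150 was 0.16 in place of 0.11. The cause of these losses was not tested.

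The numbers of miRNAs called lower moved more. For EE against placebo 15 became 9 (median, housekeeping), 8 (ligation), 7 (no filter) and 6 (summed counts), and 9 to 13 without 1 sample. For E2 against placebo 6 became 3 (summed counts) and 0 (median, ligation and no filter, with 5, 1 and 23 at an unadjusted limma p under 0.05), and 2 to 6 without 1 sample. For EE against E2 4 became 2 (positive controls, quantile, no mean trend), 1 (mean of at least 100) and 0 (median, housekeeping and no filter, with 9, 0 and 15 at an unadjusted limma p under 0.05), and 0 to 6 without 1 sample. Ratios to miR-150 called higher were 542, 196 and 224 without the filter, when all 566 mouse miRNA probes entered in place of 95. These counts have another total than the 88, 35 and 61 of 94 in the main test. The part of all ratios that was called was larger for EE against placebo. It was smaller for E2 against placebo and for EE against E2. For EE against E2 the number was 34 of 94 after subtracting the negative controls. Without 1 sample the ratios called higher ran from 16 to 68 for E2 against placebo and 0 to 72 for EE against E2.

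The mean share of miR-150 moved to 14.3% under EE and 20.1% under E2 without the erythroid markers and miR-223, to 14.0% and 19.8% over tested probes, to 14.2% and 19.97% after subtracting the negative controls, and to 14.3% and 20.4% without miR-16. Each of these takes counts out of the sum, so the placebo share rose as well. Without the erythroid markers and miR-223 the placebo share, given with those markers above, rose by less than the shares under EE and E2. In that setting both estrogen groups therefore lay nearer to placebo in percentage points. For the other settings the placebo shares are not given here, and the shifts under EE and E2 alone do not show whether the groups drew together. Scaling moved the median log2 difference of all tested miRNAs between -0.32 and 0.25 for EE minus placebo and between -0.41 and 0.12 for E2 minus placebo. Differences that turned sign were small and not called: by summed counts, miR-146a (0.0205) and miR-16 (0.20) for EE and miR-16 (0.0847) for E2, and by ligation controls, miR-146a (0.0043), miR-16 (0.19) and let-7g (0.10) for E2. The ratio of miR-155 to miR-150 turned to -1.50 for EE minus placebo and -1.02 for EE minus E2 after subtracting the negative controls. Leaving out 1 sample gave ranges that crossed 0 for miR-155 (-2.85 to 0.0785 for EE minus placebo) and for log2 ratios to miR-150 of miR-181a (-0.163 to 0.0741 for EE minus placebo, -0.0826 to 0.159 for E2 minus placebo, -0.204 to 0.0382 for EE minus E2), miR-155 (-1.49 to 1.56, -0.882 to 0.320 and -1.20 to 1.84 in the same order), miR-142-3p (-0.0461 to 0.337 for E2 minus placebo) and miR-223 (-0.151 to 0.00183 for EE minus E2).

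No paired analysis was possible because the labels pair no samples. Depth is unknown, and 2 samples a group limit each value. With a sample left out, the lone sample of its group was assumed to vary like the others.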
